A study of Mus musculus with 12 samples.

Results

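The comparison described here set macrophages of 2 mouse strains, Balb/cAnNCrl (called Balb/c) and C57BL6/J (called C57BL6), side by side after 4 h of IL-4 (interleukin-4). The members were the arrays whose sample titles gave the strain and 4 h of IL-4, which were 2 Balb/c and 2 C57BL6 arrays, or 4 of the 12 arrays of the series. The other 8 arrays held the same strains untreated (mock, 2 arrays each) and after 18 h of IL-4 (2 arrays each). Bone marrow cells of mice 8 to 12 weeks old were grown into macrophages with recombinant human CSF1 at 200 ng/ml, replated on day 6 and given recombinant mouse IL-4 at 10 ng/ml from day 7, and CSF1 and the culture steps were shared by every group. Each sample was a pool of cells from 2 male mice and 1 female mouse, and the replicates were separate experiments with different littermates. Mock cells were kept for 18 h, so the 4 h cells had no untreated sample of their own duration. RNA was labelled with Cy3 and measured on Agilent whole-genome mouse arrays, 1 sample an array.

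IL-4 is the classical signal for alternative activation of macrophages. It binds a receptor built from IL-4Rα and the common γ chain, JAK kinases phosphorylate STAT6, and STAT6 turns on Arg1, Retnla, the chitinase-like genes Chil3 and Chil4, and feedback inhibitors of the SOCS family. Balb/c and C57BL6 mice are the textbook pair for strain differences in this kind of immunity, since infection tends to provoke a type 2 response in the first and a type 1 response in the second. The strains also carry different MHC haplotypes and different versions of many interferon-inducible gene clusters.

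Levels are given on a log2 scale relative to the 75th percentile of the same array, so a level of 0 equals that percentile, and values are listed as replicate 1 then replicate 2. A difference is Balb/c minus C57BL6, and a gene was called when limma's test over all genes gave a Benjamini-Hochberg adjusted p below 0.05. Of 17460 genes tested, 758 were called (4.34%), 363 higher in Balb/c (2.08%) and 395 lower (2.26%). The median difference over all genes tested was -0.04. Among the called genes, 310 of those higher and 327 of those lower differed by at least 2-fold, and the median size of their difference was 1.75. Values of the strains did not overlap for any called gene, a separation that 40.1% of all genes with 4 values showed. In RNA from whole cultures, fewer cells of a type and less RNA per cell cannot be told apart. Whether strain differences in the sequence under a probe changed its signal was not tested.

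**Figure D1:**
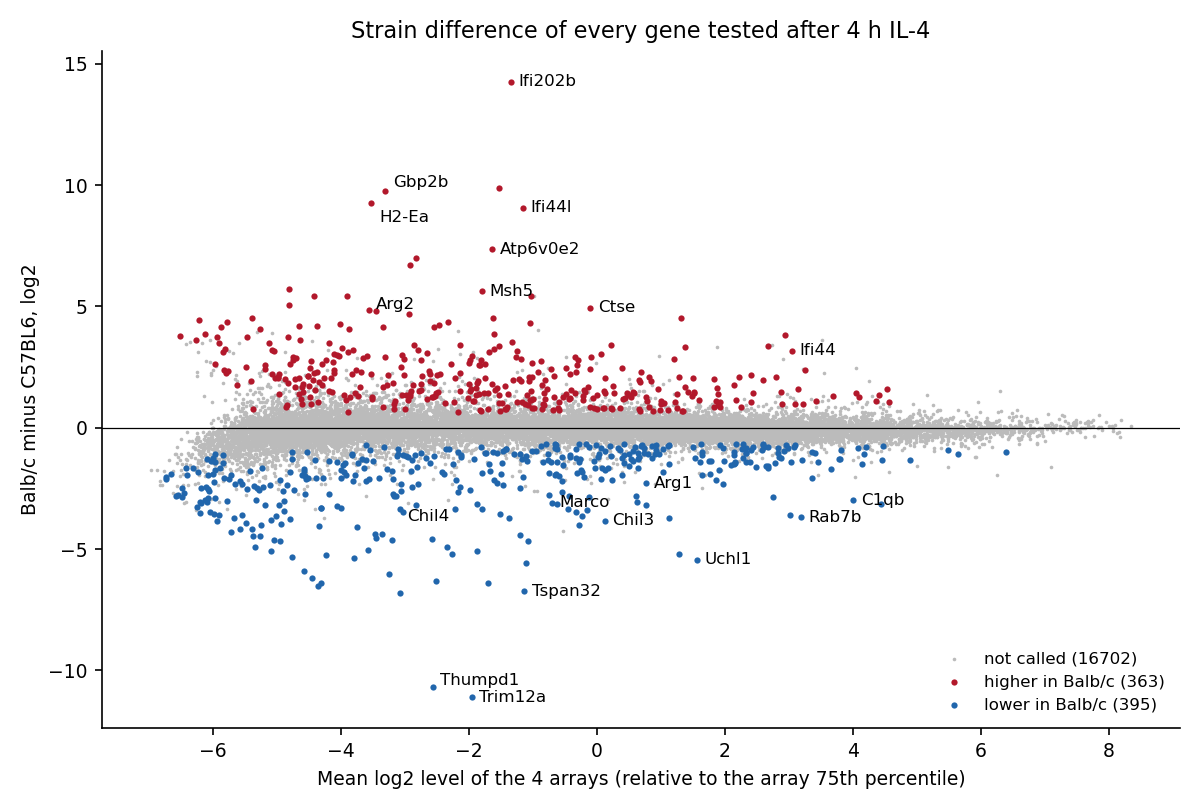
Each point is 1 of the 17460 genes tested, with its mean log2 level over the 4 arrays on the horizontal axis and the log2 difference, Balb/c minus C57BL6 after 4 h IL-4, on the vertical axis. The 363 red and 395 blue points are the called genes, and Ifi202b, at a measured 14.27, and Trim12a, at a measured -11.10, lie farthest from 0 in each direction.

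The share of spots well above background was 56.0% and 67.7% on the Balb/c arrays and 64.1% and 69.7% on the C57BL6 arrays. Replicate arrays correlated at r = 0.974 in Balb/c and 0.989 in C57BL6 after 4 h, across genes, and the Balb/c pair had the larger spread (standard deviation of the difference 0.792 against 0.504). The arrays lay on 3 slides. Slide 2 held Balb/c replicate 2 and C57BL6 replicate 1, whereas Balb/c replicate 1 was on slide 1 and C57BL6 replicate 2 on slide 3. On slide 2 alone, all 758 called genes differed in the same direction (median size 1.68). These are 2 of the 4 arrays that gave the calls. The strains' values overlapped for no called gene, so that direction was fixed in advance. With slide as a block 601 genes were called, 509 of them among the 758. Leaving out Balb/c replicate 1, C57BL6 replicate 1 or C57BL6 replicate 2 left 429, 329 or 325 calls. A fit on the 4 arrays alone called 132 genes, and background correction with normexp on the local background called 58.

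Genes above background in 1 strain and not in the other formed the extremes. Of 53 tested genes that were above background on neither C57BL6 array, 34 were called, where 4.34% of all genes were called. Of 299 that were above background on neither Balb/c array, 88 were called. Such genes entered the test through the strain in which they were bright, so these counts are a description. For them the fold is a lower bound, the bright strain's mean over the lowest signal that the scanner software placed well above background on each array of the dim strain, or over the gene's own signal where that was higher.

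Ifi202b encodes p202, a DNA-binding member of the interferon-inducible p200 family that in mice restrains the AIM2 inflammasome. Its level was 5.75 and 5.82 in Balb/c and -7.97 and -9.00 in C57BL6, bright on both Balb/c arrays and not well above background on either C57BL6 array. It was at least 4518-fold higher in Balb/c (adjusted p = 3.25e-06). Gbp2b, an interferon-induced GTPase of the guanylate-binding protein family, was at 2.21 and 0.92 in Balb/c and -7.89 and -8.48 in C57BL6. That is at least 243-fold higher in Balb/c (adjusted p = 4.21e-05). H2-Ea, the α chain of the MHC class II molecule I-E, is known not to be expressed in C57BL6 mice and so checks the strain labels. Its level was 1.72 and 0.48 in Balb/c and -7.58 and -8.73 in C57BL6, at least 175-fold higher in Balb/c (adjusted p = 2.05e-04), as those labels say.

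The other genes with this pattern had lower levels. Tafa2, a secreted chemokine-like protein, was at least 21.2-fold higher in Balb/c (levels -1.91 and -1.98 in Balb/c and -7.83 and -7.53 in C57BL6, adjusted p = 8.10e-05). Angptl7, a secreted angiopoietin-like protein, was at least 25.1-fold higher (adjusted p = 5.61e-04), and Ank2, an ankyrin that links membrane proteins to the cytoskeleton, at least 16.7-fold higher (adjusted p = 9.08e-05). Tie1, a receptor tyrosine kinase best known from endothelium, was at least 10.6-fold higher (adjusted p = 0.00843), and Ndrg2, a stress-responsive gene of the N-myc downregulated family, at least 11.3-fold higher (adjusted p = 0.0193). Leaving out Balb/c replicate 1 ended the calls of Tie1 and Ndrg2 (adjusted p = 0.0548 and 0.126). Omitting C57BL6 replicate 1 ended the call of Ndrg2 (adjusted p = 0.0545). Without C57BL6 replicate 2, the calls of Tie1 and Ndrg2 were lost (adjusted p = 0.0757 and 0.148). When slide was a block, Ndrg2 did not pass the test (adjusted p = 0.0755). The random replicate block within strain ended the call of Tie1 (adjusted p = 0.0600).

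In the opposite direction, Trim12a, a relative of the antiviral restriction factor TRIM5, stood at -7.03 and -7.98 in Balb/c and 3.58 and 3.61 in C57BL6. It was at least 617-fold lower in Balb/c (adjusted p = 1.79e-06), and a second Trim12a probe, above background on all 4 arrays, differed by -4.90. Thumpd1, which assists the acetylation of transfer RNA, stood at -7.42 and -8.41 in Balb/c and 2.83 and 2.73 in C57BL6 (at least 352-fold lower, adjusted p = 6.36e-06). Its probes disagreed, since a second and dimmer probe, designed to another accession, differed by 0.20. Rab6b, a small GTPase of Golgi traffic, was at least 64.1-fold lower in Balb/c by a pair of probes that differed by -6.80 and -6.63 (adjusted p = 9.45e-04).

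Raet1e, a stress-induced ligand of the NKG2D receptor of natural killer cells, was at -6.60 and -5.91 in Balb/c and -0.13 and -0.36 in C57BL6, at least 39.0-fold lower in Balb/c (adjusted p = 1.22e-04). Prdm16, a transcriptional regulator of brown fat and blood stem cells, was at least 23.7-fold lower (adjusted p = 3.47e-05). Bounds were smaller for Trim30b, another tripartite-motif gene (at least 16.6-fold, adjusted p = 5.67e-04), for Trib2, a pseudokinase (at least 9.41-fold, adjusted p = 0.00497), and for Nlrp1a, an inflammasome sensor (at least 7.55-fold, adjusted p = 2.19e-04). Leaving out 1 array ended the call of Trib2 (adjusted p = 0.0502 without C57BL6 replicate 2). Ifi202b, Trim12a and Trim30b belong to clusters of near-identical copies, so a probe may also read a relative.

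**Figure D2:**
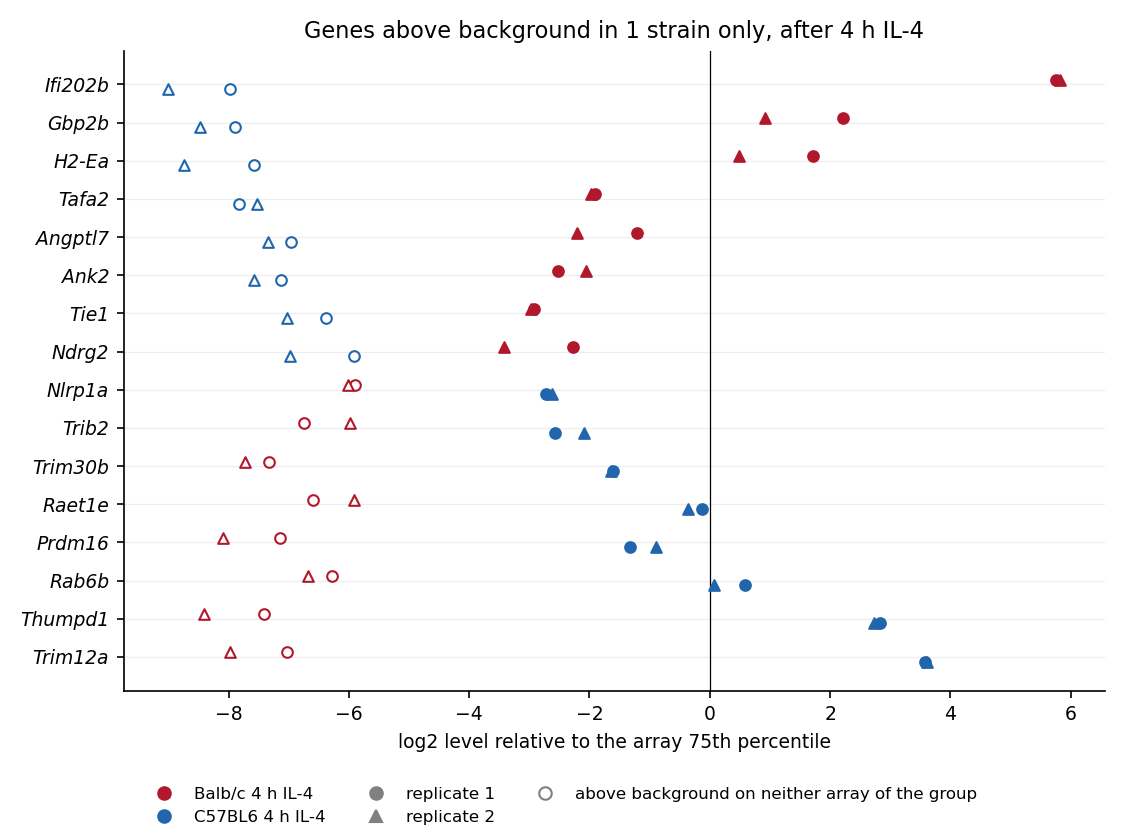
Log2 levels relative to the 75th percentile of the array (horizontal axis) of the 16 genes named for being above background in 1 strain. Red marks are Balb/c and blue marks C57BL6 after 4 h IL-4, circles replicate 1 and triangles replicate 2, and open marks a group in which neither array was well above background. No gene's red and blue marks overlap, which was a condition for naming the genes, and Ifi202b spans from -9.00 to 5.82.

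Among genes above background on all 4 arrays, those with the largest excess in Balb/c had varied functions. Atp6v0e2, a subunit of the vacuolar proton pump, was at 2.42 and 1.68 in Balb/c and -5.25 and -5.38 in C57BL6 (difference 7.36 ± 0.33, adjusted p = 2.37e-05). Msh5, a meiotic member of the DNA mismatch repair family, was at 1.07 and 0.95 in Balb/c and -4.88 and -4.35 in C57BL6 (5.62 ± 0.21, adjusted p = 1.14e-05), and its chromosomal neighbour Sapcd1 differed by 4.37 ± 0.31 (adjusted p = 1.69e-04). For each of these genes the strains lay farther apart than the replicates did, which their choice by largest called difference favours. Cpne8, a calcium-dependent phospholipid-binding copine, differed by 5.42 ± 0.64 (adjusted p = 0.00257), and Nrcam, a neuronal adhesion molecule, by 4.53 ± 0.24 (adjusted p = 5.12e-05). The others were Chst10, a sulfotransferase (4.51), Cxcl14, a homeostatic chemokine (4.32), Mmel1, a membrane metallopeptidase (4.25), Pdgfrb, the PDGF receptor β chain (4.16), and Fbp1, an enzyme of gluconeogenesis (4.68). The call did not hold without 1 array for Fbp1 (adjusted p = 0.131 without Balb/c replicate 1, 0.0733 without C57BL6 replicate 1 and 0.177 without C57BL6 replicate 2). With slide as a block, Fbp1 did not pass the test (adjusted p = 0.106).

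Lysosomal and endosomal genes stood on both sides. Ctse encodes the aspartic protease cathepsin E, which processes antigen in endosomes, and was at 2.92 and 1.80 in Balb/c and -2.38 and -2.77 in C57BL6 (4.94 ± 0.39, adjusted p = 3.34e-04). Its next tested gene on the chromosome, Rab7b, a late endosomal GTPase that limits Toll-like receptor signalling, went the other way. Rab7b was at 1.33 and 1.34 in Balb/c and 4.94 and 5.13 in C57BL6 (-3.70 ± 0.22, adjusted p = 8.10e-05). Both genes were above background on all 4 arrays, and the pair was called in opposite directions.

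Of the genes lower in Balb/c and above background on all 4 arrays, Tspan32, a tetraspanin of blood cells, differed most, with levels of -3.88 and -5.12 in Balb/c and 2.33 and 2.13 in C57BL6 (-6.73 ± 1.12, adjusted p = 0.0123). Uchl1, a ubiquitin hydrolase, was at -1.73 and -0.61 in Balb/c and 4.13 and 4.43 in C57BL6 (-5.45 ± 0.48, adjusted p = 5.91e-04). C5ar2, the second receptor for the complement fragment C5a, was at -3.94 and -2.87 in Balb/c and 1.08 and 1.43 in C57BL6 (-4.66 ± 0.32, adjusted p = 1.33e-04), while its partner C5ar1 was at -3.36 and -1.26 in Balb/c and -0.26 and 0.40 in C57BL6 and was not called (-2.38 ± 0.70, adjusted p = 0.130). Other large deficits in Balb/c were those of Plekhg1, a guanine nucleotide exchange factor (-5.21), Spint1, an inhibitor of serine proteases (-4.44), Prim2, a subunit of DNA primase (-3.99), and Cyp4f18, which inactivates leukotriene B4 in mice (-3.63). Arl2bp and Gcnt1 were also among them by their brightest probes, but the probes of these genes ranged from -3.70 to -1.24 and from -3.61 to 0.66, and with the mean of its probes Gcnt1 was not called (adjusted p = 0.0615). Leaving out Balb/c replicate 1 ended the call of Spint1 (adjusted p = 0.108). Omitting Balb/c replicate 2 ended the calls of Tspan32 and Spint1 (adjusted p = 0.0645 and 0.0837). Without C57BL6 replicate 1, the call of Tspan32 was lost (adjusted p = 0.0929). Leaving out C57BL6 replicate 2 ended the calls of Tspan32 and Spint1 (adjusted p = 0.0792 and 0.122).

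No gene of the IL-4 receptor and its proximal signalling was called among 18 tested. With 4.34% of all genes called, a list this short may hold none. The list had a median difference of -0.21 and a range of -0.67 to 0.77. Il4ra, the ligand-binding chain, was at 4.20 and 3.47 in Balb/c and 4.18 and 4.57 in C57BL6, overlapping between strains (difference -0.54, 95% interval -1.28 to 0.20). Socs1, a feedback inhibitor that STAT6 induces, was at 5.82 and 5.42 in Balb/c and 6.13 and 6.32 in C57BL6, slightly lower on both Balb/c arrays (-0.61, interval -1.05 to -0.16 without adjustment, adjusted p = 0.161). Cish, another inhibitor of the family, was at 4.17 and 3.25 in Balb/c and 3.95 and 3.88 in C57BL6 (-0.20, interval -2.14 to 1.73). Jak3, the kinase bound to the γ chain, differed by 0.53 (interval 0.09 to 0.97, adjusted p = 0.223).

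None of 18 transcription factors linked to IL-4-primed macrophages was called either (median -0.21, range -0.93 to 1.21), where 4.34% of all genes were called. Irf4, which promotes the alternative programme, was at 1.55 and 0.43 in Balb/c and 0.99 and 1.13 in C57BL6, with overlapping strains (-0.07, interval -1.33 to 1.19). Egr2 was at 5.45 and 4.46 in Balb/c and 5.53 and 6.05 in C57BL6 (-0.83, interval -1.93 to 0.26), and Pparg, a lipid-sensing nuclear receptor, was at 2.62 and 2.53 in Balb/c and 3.49 and 3.15 in C57BL6 (-0.74, interval -1.37 to -0.12, adjusted p = 0.235). Intervals of this width leave room for differences of 2-fold or more in these genes.

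Downstream, 5 of 21 tested markers of alternative activation were called, 1 higher and 4 lower in Balb/c, where 4.34% of all genes were called. The list median was -0.18. Arg1, the cytosolic arginase that turns arginine into ornithine, was at -1.04 and 0.30 in Balb/c and 1.78 and 2.07 in C57BL6, lower on both Balb/c arrays. The difference was -2.29 ± 0.45, adjusted p = 0.0271, or 4.90-fold lower in Balb/c. Arg1 was far below this level in untreated cells of both strains, at -7.01 and -7.66 in Balb/c and -7.51 and -8.01 in C57BL6. After 18 h it had reached 4.58 and 4.75 in Balb/c and 4.51 and 3.82 in C57BL6, and neither the untreated nor the 18 h strain difference was called. Untreated cells of both strains were not well above background. The 4 h call of Arg1 was lost without Balb/c replicate 1 (adjusted p = 0.109), C57BL6 replicate 1 (0.125) or C57BL6 replicate 2 (0.179), with slide as a block (-1.97, adjusted p = 0.111) and with the replicate number as a random block within strain (adjusted p = 0.120). On slide 2 alone the difference was -1.48.

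Chil3 (Ym1) and Chil4 (Ym2) are neighbouring genes for secreted chitinase-like proteins that IL-4 induces in mouse macrophages. Chil3 was at -1.46 and -2.13 in Balb/c and 2.52 and 1.54 in C57BL6 (-3.82 ± 0.59, adjusted p = 0.00859), and Chil4 at -4.53 and -5.00 in Balb/c and -0.83 and -1.97 in C57BL6 (-3.36 ± 0.65, adjusted p = 0.0251). Both were called lower in Balb/c cells that were untreated (-4.81 for Chil3, and at least 7.27-fold for Chil4, which was not well above background there) or treated for 18 h (-3.54 and -3.55). Neither gene's change from mock to 4 h was called in either strain. The genes are near-identical copies, so their probes may read both. Omitting Balb/c replicate 1 ended the call of Chil4 (adjusted p = 0.0929). Without Balb/c replicate 2, the call of Chil4 was lost (adjusted p = 0.0974). Leaving out C57BL6 replicate 1 ended the calls of Chil3 and Chil4 (adjusted p = 0.0780 and 0.185). Omitting C57BL6 replicate 2 ended the call of Chil4 (adjusted p = 0.0589).

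The promoters of this pair, which are 2 copies of 1 ancestral gene, are shown because the genes differed together, with those of Gbp2b and Trim12a as 1 interferon-family gene from each direction. Sequences are from the RefSeq annotation of GRCm38.p6, a C57BL6 genome, from 250 bases before to 50 bases after the start of each gene, 5′ to 3′ on the gene's strand. Capitals mark a match, on either strand, to the STAT site (TTC and GAA with 3 bases between them) in Chil3 and Chil4 and to the interferon-stimulated response element (GAAA and GAAA, or TTTC and TTTC on the other strand, with 2 bases between them) in Gbp2b and Trim12a.
Chil3, chr3:106167515-106167814, minus strand: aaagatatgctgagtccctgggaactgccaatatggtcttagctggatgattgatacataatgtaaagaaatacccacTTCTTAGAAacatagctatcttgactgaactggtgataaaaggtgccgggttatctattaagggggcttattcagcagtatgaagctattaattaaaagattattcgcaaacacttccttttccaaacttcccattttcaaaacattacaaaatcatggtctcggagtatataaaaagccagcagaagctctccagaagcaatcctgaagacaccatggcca
Chil4, chr3:106219430-106219729, minus strand: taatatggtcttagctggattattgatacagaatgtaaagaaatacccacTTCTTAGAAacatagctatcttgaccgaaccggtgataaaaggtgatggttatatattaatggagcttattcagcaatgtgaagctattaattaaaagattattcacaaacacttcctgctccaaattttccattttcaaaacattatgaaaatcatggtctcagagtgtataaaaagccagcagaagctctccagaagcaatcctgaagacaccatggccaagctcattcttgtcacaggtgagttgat
Gbp2b, chr3:142594597-142594896, plus strand: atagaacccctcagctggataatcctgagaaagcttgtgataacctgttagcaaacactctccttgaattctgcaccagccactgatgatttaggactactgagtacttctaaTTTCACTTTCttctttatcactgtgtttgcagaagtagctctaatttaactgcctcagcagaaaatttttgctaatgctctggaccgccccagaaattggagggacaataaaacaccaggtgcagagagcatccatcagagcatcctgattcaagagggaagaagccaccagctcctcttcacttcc
Trim12a, chr7:104315446-104315745, minus strand: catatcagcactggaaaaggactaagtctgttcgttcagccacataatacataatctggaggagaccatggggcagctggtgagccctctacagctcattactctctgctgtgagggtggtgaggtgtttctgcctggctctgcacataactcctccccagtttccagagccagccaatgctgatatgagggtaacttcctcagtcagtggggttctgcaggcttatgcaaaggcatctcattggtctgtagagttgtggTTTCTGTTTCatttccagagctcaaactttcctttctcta
Chil3 and Chil4 share a run of 53 identical bases and the same match, TTCTTAGAA. The STAT site letters occur in 8.30% of 32851 promoters of this length and the response element in 3.44%. The STAT6 form, TTC and GAA with 4 bases between them, is in 6.95% of promoters and in none of these 4 windows. The windows of Ifi202b and Ifi44 were also searched, held no match to the response element and are not printed. That of Ifi202b held 1 match to the STAT site letters, and that of Ifi44 held none. A match is a description of letters in the C57BL6 reference, and the Balb/c sequence was not used here.

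The remaining called markers of alternative activation were Flt1 and Cd209a. Flt1, a receptor for vascular endothelial growth factor, was at 2.46 and 3.14 in Balb/c and 4.40 and 4.60 in C57BL6 (-1.70 ± 0.26, adjusted p = 0.00862), and 3 of its 4 probes gave similar differences while a dim one differed by -0.27. IL-4 raised Flt1 in both strains, by 3.73 in Balb/c (adjusted p = 0.00127) and 3.68 in C57BL6 (adjusted p = 8.16e-04), where 1.55% and 3.65% of all genes were called against mock, and the untreated strains differed by -1.75. Cd209a, a C-type lectin of dendritic cells and some macrophages, was at -4.04 and -3.14 in Balb/c and -7.33 and -8.61 in C57BL6, above background on neither C57BL6 array and at least 6.80-fold higher in Balb/c (adjusted p = 0.00551). Retnla, the resistin-like protein FIZZ1 and a hallmark of the IL-4 response, was at 3.66 and 2.12 in Balb/c and 2.23 and 2.99 in C57BL6, with overlapping strains (0.28, interval -2.48 to 3.04). Leaving out 1 array ended the call of Flt1 (adjusted p = 0.0538 without C57BL6 replicate 1 and 0.0787 without C57BL6 replicate 2).

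**Figure D3:**
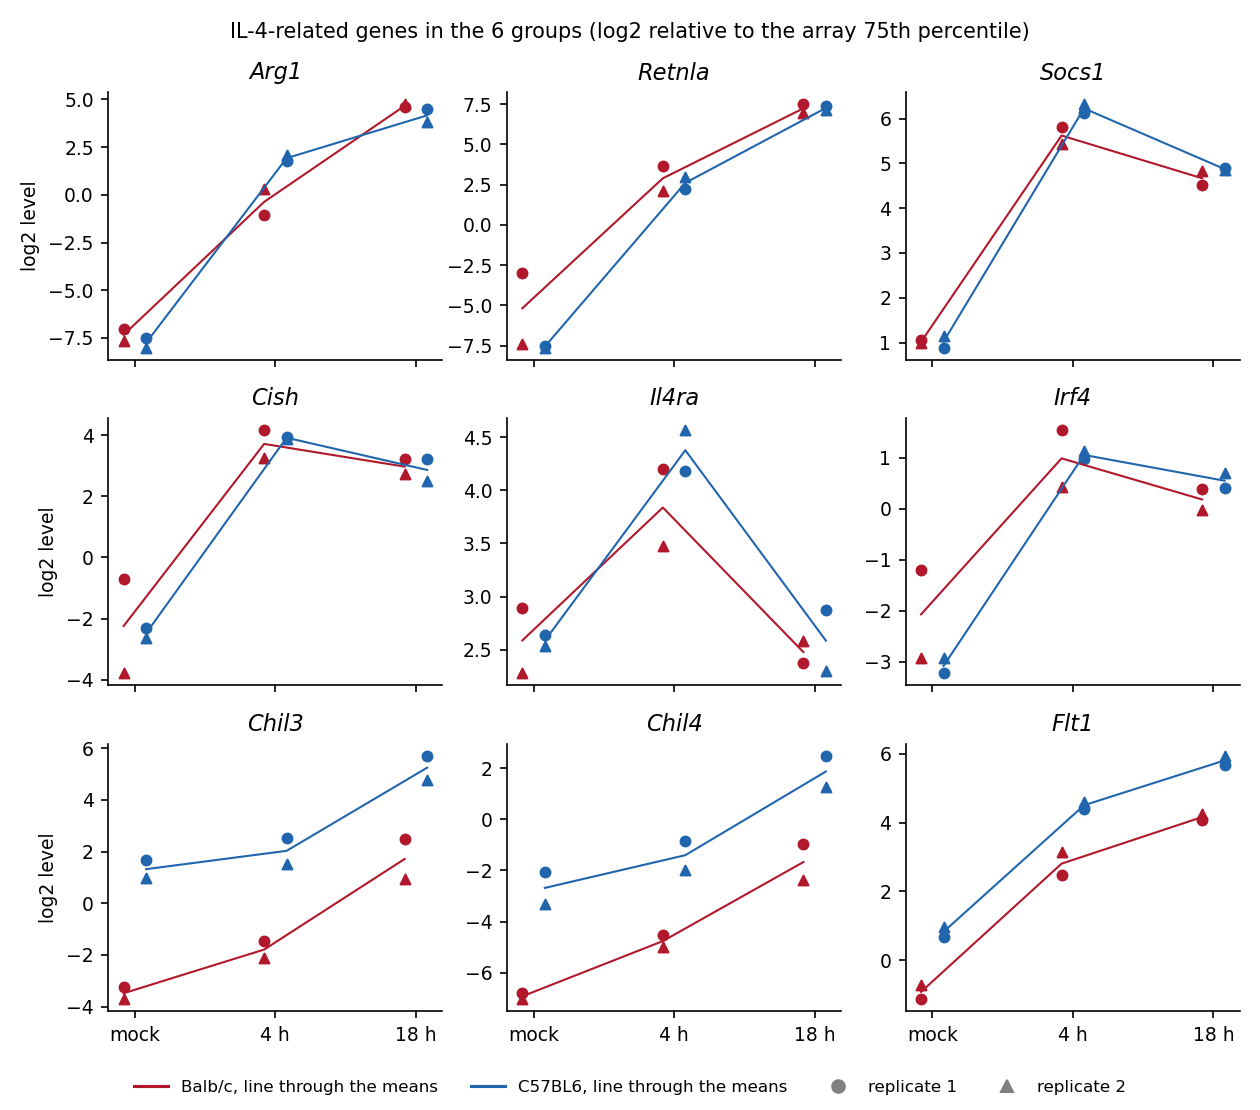
Log2 levels relative to the 75th percentile of the array (vertical axes, scaled per gene) of 9 genes of the IL-4 response in untreated cells (mock) and after 4 h and 18 h of IL-4. Red is Balb/c and blue C57BL6, circles are replicate 1, triangles replicate 2, and lines join group means. The 4 h Arg1 values lie below C57BL6 in both Balb/c replicates, whereas Chil3, Chil4 and Flt1 are lower in Balb/c in all 3 conditions and Retnla overlaps after 4 h.

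The arginine genes were split between the arginases. Of 19 tested genes of arginine and polyamine metabolism, Arg2 was called higher and Arg1 lower in Balb/c, where 4.34% of all genes were called. The list median was -0.53. Arg2, the mitochondrial arginase, was at -0.67 and -1.61 in Balb/c and -5.52 and -6.49 in C57BL6 (4.87 ± 0.77, adjusted p = 0.00970). It was also higher in Balb/c cells that were untreated (at least 16.2-fold) or treated for 18 h (at least 48.1-fold), where C57BL6 was not well above background. Odc1, which makes putrescine from ornithine, was at 2.57 and 4.09 in Balb/c and 4.51 and 4.84 in C57BL6 and was not called (-1.34, interval -2.74 to 0.06), and Ass1, which resynthesises arginine, differed by -0.86 (interval -1.52 to -0.20, adjusted p = 0.185). The call did not hold without 1 array for Arg2 (adjusted p = 0.0728 without Balb/c replicate 1 and 0.0852 without C57BL6 replicate 2). In the fit with slide as a block, Arg2 did not pass the test (adjusted p = 0.0763).

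Interferon-inducible genes were called in both directions, 2 of 35 tested antiviral genes, 2 of 16 GTPases and 3 of 12 nucleic acid sensors and p200 genes, where 4.34% of all genes were called. The antiviral genes were Ifi44 and Ifi44l, both higher in Balb/c, and the list median was -0.18. Ifi44l was at 3.21 and 3.55 in Balb/c and -5.48 and -5.91 in C57BL6 (9.07 ± 0.78, adjusted p = 9.81e-04), above background on 1 of the 2 C57BL6 arrays. Its neighbour Ifi44 was at 4.45 and 4.83 in Balb/c and 1.58 and 1.35 in C57BL6 (3.17 ± 0.27, adjusted p = 5.06e-04). Isg15, a ubiquitin-like protein that rises with interferon, was at 3.43 and 4.33 in Balb/c and 4.85 and 4.40 in C57BL6 and was not called (-0.74, interval -1.72 to 0.23).

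Of the interferon-inducible GTPases, Gbp2b was called higher and Irgm2 lower in Balb/c. Irgm2, which acts on vacuoles that hold pathogens, was at 3.57 and 3.13 in Balb/c and 4.28 and 4.24 in C57BL6 (-0.91 ± 0.16, adjusted p = 0.0194). Of the nucleic acid sensors and p200 genes, 1 was higher and 2 were lower. Ifi205, the next tested neighbour of Ifi202b, was at 5.11 and 5.07 in Balb/c and 6.23 and 6.16 in C57BL6 (-1.10 ± 0.15, adjusted p = 0.00516). Ifi209 was at 1.12 and 1.49 in Balb/c and 2.76 and 2.59 in C57BL6 (-1.37 ± 0.18, adjusted p = 0.00412). These brightest probes were 2.14-fold and 2.59-fold lower in the strain where Ifi202b was high. A second, dimmer Ifi205 probe differed by -0.45 with overlapping strains, and with the mean of its probes Ifi205 was not called (-0.78, adjusted p = 0.304). Omitting Balb/c replicate 2 ended the call of Irgm2 (adjusted p = 0.0634). Without C57BL6 replicate 1, the calls of Irgm2 and Ifi205 were lost (adjusted p = 0.143 and 0.0574). Leaving out C57BL6 replicate 2 ended the call of Irgm2 (adjusted p = 0.123).

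The tripartite-motif (Trim) genes had a list median of -0.93. Of 14 tested, 6 were called lower and 1 higher, where 2.26% and 2.08% of all genes were. Besides Trim12a and Trim30b these were Trim34a, at -0.99 and -0.59 in Balb/c and 2.01 and 2.02 in C57BL6 (-2.81 ± 0.17, adjusted p = 9.99e-05), Trim30d, at 0.39 and 0.93 in Balb/c and 2.63 and 2.62 in C57BL6 (-1.96 ± 0.19, adjusted p = 0.00102), Trim6 (-1.96) and Trim56 (-1.21), while Trim68, which the naming rule did not take, was higher (0.85). Trim6, Trim34a and Trim12a follow one another on the chromosome among the genes tested. The call did not hold without 1 array for Trim56 (adjusted p = 0.0589 without C57BL6 replicate 2). The call of Trim68 was lost without any 1 of the 4 arrays (adjusted p = 0.0667 to 0.225) and with slide as a block (0.0553).

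Of antigen presentation genes, 1 of 11 tested in the class II pathway and 2 of 24 in the class I pathway were called, where 4.34% of all genes were called. The class II gene was H2-Ea, while H2-Eb1, the β chain of I-E, was at 4.30 and 2.87 in Balb/c and 2.71 and 2.98 in C57BL6 (0.74, interval -0.62 to 2.10). Both class I genes were lower in Balb/c. Tap2, a subunit of the peptide transporter, was at 1.69 and 1.70 in Balb/c and 3.12 and 3.08 in C57BL6 (-1.40 ± 0.14, adjusted p = 9.92e-04), and H2-Q8, a nonclassical class I gene with near-identical relatives, at 1.54 and 1.26 in Balb/c and 2.64 and 3.16 in C57BL6 (-1.50 ± 0.25, adjusted p = 0.0115). Leaving out 1 array ended the call of H2-Q8 (adjusted p = 0.0597 without Balb/c replicate 2 and 0.0946 without C57BL6 replicate 2).

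Of 35 tested paired receptors of myeloid cells, 4 were called and all were lower in Balb/c, with a list median of -0.61. Of all genes 4.34% were called, 2.26% of them as lower. Slamf7, a self-binding receptor of the SLAM family, was at -1.70 and -2.02 in Balb/c and 1.65 and 1.45 in C57BL6 (-3.41 ± 0.33, adjusted p = 9.41e-04), and Cd244a, another SLAM receptor, at -2.56 and -1.70 in Balb/c and 1.07 and 1.37 in C57BL6 (-3.35 ± 0.40, adjusted p = 0.00253). The others, of the CD300 and leukocyte immunoglobulin-like families, were Cd300c (at least 2.77-fold lower, not well above background in Balb/c) and Lilra6 (-0.91, not called with the mean of its probes, adjusted p = 0.124). Of 17 tested Ly6 and Ms4a genes 2 were lower and 1 higher. Ly6a (Sca-1) was at 1.68 and 0.98 in Balb/c and 4.11 and 4.26 in C57BL6 (-2.86 ± 0.36, adjusted p = 0.00332), and its neighbour Ly6c1 was lower by its bright probe (-3.14) and not by a dim one (1.1), and it was not called with the mean of its probes (adjusted p = 0.303). Of 26 scavenger receptor and lipid genes, Marco, which takes up bacteria and particles, was at -2.62 and -1.87 in Balb/c and 0.74 and 0.94 in C57BL6 (-3.09 ± 0.30, adjusted p = 9.41e-04), and Cd163, the haemoglobin scavenger receptor, was higher at -1.06 and -1.28 in Balb/c and -2.89 and -2.64 in C57BL6 (1.60 ± 0.24, adjusted p = 0.00726). Timd4, a phosphatidylserine receptor for dying cells, was higher in Balb/c (2.92 ± 0.46, adjusted p = 0.00989, above background on 1 C57BL6 array), and 3 of the other 15 tested costimulatory genes were lower, Cd276, a ligand of the B7 family (-2.10 ± 0.17, adjusted p = 3.34e-04), Tnfsf4, the ligand of OX40 (-2.08, above background on 1 Balb/c array), and Havcr2 (TIM-3, -1.02). Omitting Balb/c replicate 1 ended the calls of Lilra6, Cd163, Timd4, Tnfsf4 and Havcr2 (adjusted p = 0.0944, 0.0549, 0.0506, 0.161 and 0.117). Without Balb/c replicate 2, the calls of Cd300c, Lilra6, Timd4 and Havcr2 were lost (adjusted p = 0.144, 0.0848, 0.0525 and 0.156). Leaving out C57BL6 replicate 1 ended the calls of Cd300c, Lilra6, Cd163, Timd4, Tnfsf4 and Havcr2 (adjusted p = 0.200, 0.101, 0.0747, 0.0515, 0.265 and 0.274). Omitting C57BL6 replicate 2 ended the calls of Cd300c, Lilra6, Timd4, Tnfsf4 and Havcr2 (adjusted p = 0.220, 0.186, 0.0871, 0.127 and 0.209). When slide was a block, Cd300c, Timd4 and Tnfsf4 did not pass the test (adjusted p = 0.101, 0.0713 and 0.0753). The random replicate block within strain ended the calls of Cd300c, Timd4 and Tnfsf4 (adjusted p = 0.0667, 0.0595 and 0.0598).

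Called genes of the inflammatory lists were 1 of 17 tested cytokines, 2 of 21 chemokines and 2 of 24 genes of Toll-like receptor signalling, where 4.34% of all genes were called. The cytokine was Il1b, the precursor of interleukin-1β. It was at -3.21 and -3.70 in Balb/c and -6.17 and -7.11 in C57BL6, above background on neither C57BL6 array and at least 7.44-fold higher (adjusted p = 0.00934). Il6 was at -4.93 and -2.76 in Balb/c and -7.14 and -7.57 in C57BL6 and was not called (at least 5.69-fold higher by the bound, adjusted p = 0.105), except with the random replicate block within strain (adjusted p = 0.0323). The chemokines were Cxcl14 and the interferon-induced Cxcl11 (2.81 ± 0.34, adjusted p = 0.00284, above background on 1 C57BL6 array), both higher. Tlr4, the receptor for lipopolysaccharide, was at 3.77 and 3.41 in Balb/c and 2.55 and 2.67 in C57BL6 (0.98 ± 0.19, adjusted p = 0.0275), and its adaptor Myd88 was lower at 2.68 and 2.79 in Balb/c and 3.45 and 3.43 in C57BL6 (-0.70 ± 0.14, adjusted p = 0.0271). Without Balb/c replicate 1, the calls of Il1b, Tlr4 and Myd88 were lost (adjusted p = 0.0694, 0.162 and 0.147). Leaving out Balb/c replicate 2 ended the call of Myd88 (adjusted p = 0.0631). Omitting C57BL6 replicate 1 ended the calls of Tlr4 and Myd88 (adjusted p = 0.195 and 0.186). Without C57BL6 replicate 2, the calls of Il1b, Tlr4 and Myd88 were lost (adjusted p = 0.0788, 0.132 and 0.168). With slide as a block, Il1b and Myd88 did not pass the test (adjusted p = 0.0672 and 0.0815).

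Complement genes were called in both directions, 2 higher and 1 lower of 17 tested, where 4.34% of all genes were called. C1qb, a chain of the recognition molecule C1q, was at 2.96 and 2.07 in Balb/c and 5.50 and 5.51 in C57BL6 (-2.99 ± 0.32, adjusted p = 0.00156). C1ra, a protease of the C1 complex, differed by 1.1 (adjusted p = 0.0415). Among proteases and inhibitors, Plau, the urokinase plasminogen activator, was at 4.41 and 5.27 in Balb/c and 0.69 and 1.36 in C57BL6 (3.81 ± 0.50, adjusted p = 0.00396). Adamts1, a matrix metalloprotease above background on 1 C57BL6 array, differed by 4.20, Serpinb10, an intracellular protease inhibitor, by 3.43, and Serpine2, which inhibits thrombin and urokinase, was at least 4.48-fold higher in Balb/c (adjusted p = 0.00880). Serpina3n, a secreted inhibitor of serine proteases, was above background on neither Balb/c array and at least 2.16-fold lower (adjusted p = 0.00794). Leaving out Balb/c replicate 1 ended the calls of C1ra, Serpinb10 and Serpine2 (adjusted p = 0.209, 0.0565 and 0.0658). Omitting C57BL6 replicate 1 ended the calls of C1ra, Serpinb10 and Serpine2 (adjusted p = 0.250, 0.0706 and 0.0702). Without C57BL6 replicate 2, the calls of C1ra, Serpine2 and Serpina3n were lost (adjusted p = 0.175, 0.0652 and 0.0682). In the fit with slide as a block, C1ra and Serpine2 did not pass the test (adjusted p = 0.0944 and 0.0646).

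In redox and glutathione metabolism 3 of 37 tested genes were higher and 5 lower in Balb/c, where 4.34% of all genes were called. The list median was -0.11. Nnt, the mitochondrial transhydrogenase that is deleted in part in C57BL6/J mice, was at 2.49 and 1.98 in Balb/c and 0.84 and 0.76 in C57BL6 (1.44 ± 0.21, adjusted p = 0.00705), and its 4 probes ranged from -0.23 to 1.44. Glo1, which clears methylglyoxal, was at 3.17 and 2.87 in Balb/c and 1.65 and 0.90 in C57BL6 (1.75 ± 0.25, adjusted p = 0.00573), and Cbr1, a carbonyl reductase, at 2.92 and 2.15 in Balb/c and 0.53 and 0.42 in C57BL6 (2.06 ± 0.30, adjusted p = 0.00629). Of the genes lower in Balb/c, 3 were the glutathione transferases Gsta3 (-2.61), Gstm2 (-2.09, above background on 1 Balb/c array) and Gsto1 (-1.31). Of 17 iron genes, the transferrin receptor Tfrc was at 2.55 and 2.29 in Balb/c and 1.07 and 1.55 in C57BL6 (1.11 ± 0.22, adjusted p = 0.0307) and Cd163 was higher, and Steap3, a ferrireductase, was lower (-1.24) together with Lcn2 and Ltf. Omitting Balb/c replicate 1 ended the calls of Gstm2, Gsto1, Tfrc and Steap3 (adjusted p = 0.0761, 0.0520, 0.178 and 0.0504). Without Balb/c replicate 2, the calls of Gsta3, Gsto1 and Tfrc were lost (adjusted p = 0.0965, 0.0545 and 0.0592). Leaving out C57BL6 replicate 1 ended the calls of Nnt, Gsta3, Gstm2, Gsto1, Tfrc and Steap3 (adjusted p = 0.0562, 0.0947, 0.112, 0.0817, 0.229 and 0.0507). Omitting C57BL6 replicate 2 ended the calls of Nnt, Cbr1, Gsta3, Gstm2, Gsto1, Tfrc and Steap3 (adjusted p = 0.0651, 0.0582, 0.167, 0.119, 0.0872, 0.0524 and 0.0658).

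Of 41 pathway lists, 15 held no called gene, where 4.34% of all genes were called. They had 246 tested entries, and the absence of calls among these follows from picking lists without a call. These lists included cell cycle genes (0 of 31, list median -0.41), cholesterol and fatty acid synthesis (0 of 24, -0.40), glycolysis and the citric acid cycle (0 of 27, -0.28), NF-κB subunits and inhibitors (0 of 16, -0.13), Fc receptors (0 of 8, 0.21) and chemoattractant receptors (0 of 16, -0.29). Ribosomal protein genes spanned -0.38 to 0.22 (0 of 20, median -0.05). Of 18 immediate-early genes 1 was called, Zfp36, whose product speeds the decay of cytokine messages, at 2.19 and 2.24 in Balb/c and 2.97 and 3.05 in C57BL6 (-0.80 ± 0.15, adjusted p = 0.0212). The call did not hold without 1 array for Zfp36 (adjusted p = 0.111 without Balb/c replicate 1, 0.0647 without Balb/c replicate 2, 0.125 without C57BL6 replicate 1 and 0.168 without C57BL6 replicate 2). When slide was a block, Zfp36 did not pass the test (adjusted p = 0.109). The random replicate block within strain ended the call of Zfp36 (adjusted p = 0.0528). A list without a call is not shown to be equal between the strains.

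**Figure D4:**
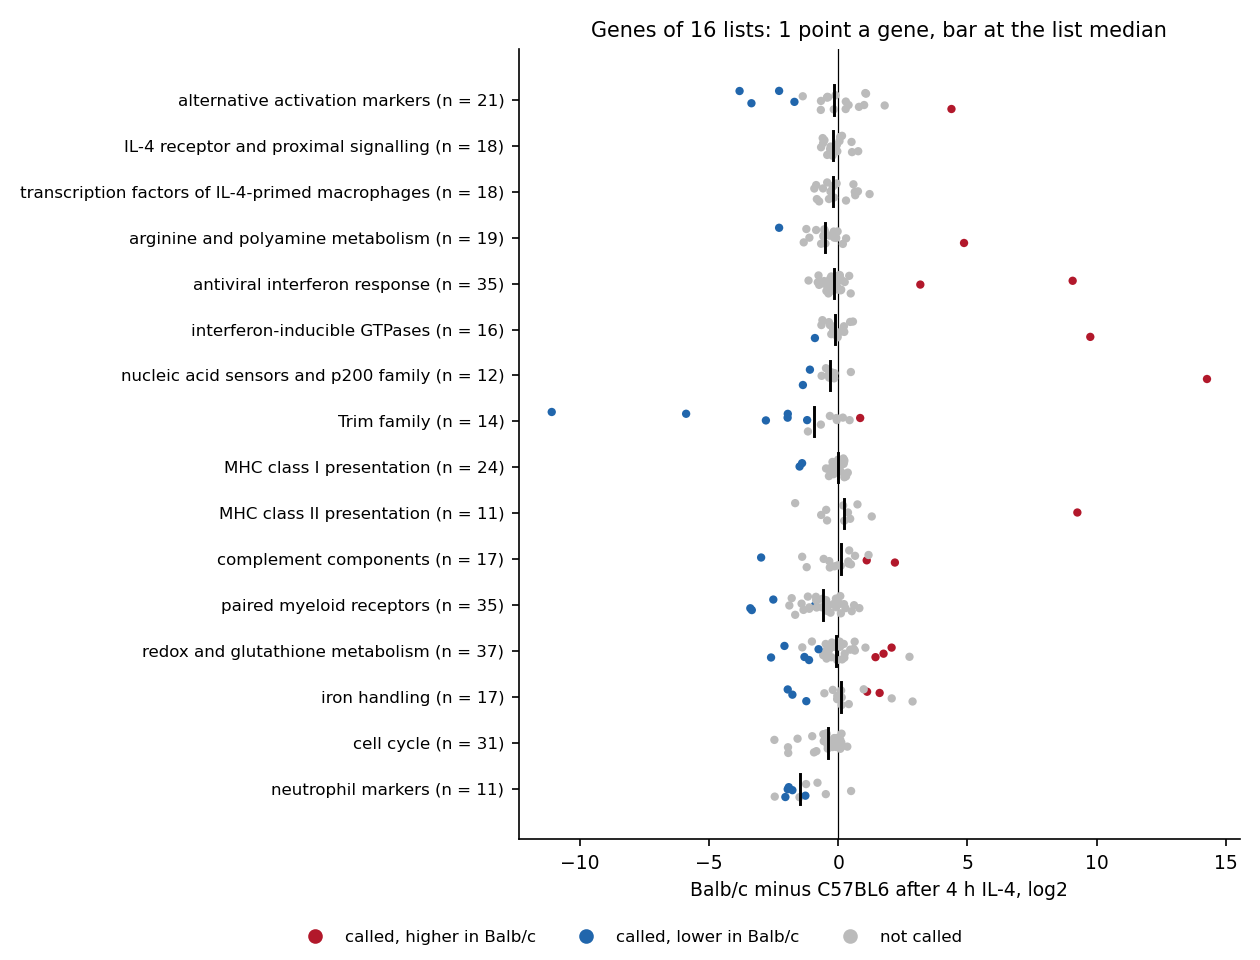
Each point is a gene of 1 of 16 lists, placed by its log2 difference, Balb/c minus C57BL6 after 4 h IL-4, with called genes in red (higher in Balb/c) or blue (lower) and the list median as a black bar. Large measured differences belong to single genes such as Ifi202b (14.27), H2-Ea (9.25) and Trim12a (-11.10), while the medians of the Trim family (-0.93) and of the neutrophil markers (-1.50) lie farthest from 0.

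Macrophage markers were bright in both strains, with 0 of 13 called, all 13 above background, and a summed level of 1148 and 960.0 times the 75th percentile in Balb/c and 902 and 947 in C57BL6. Neutrophil markers were lower in Balb/c, with 5 of 11 tested genes called and all 5 lower (list median -1.50). Over all genes 4.34% were called in either direction and 2.26% were called lower. Ltf (lactoferrin) was at -2.56 and -2.55 in Balb/c and -0.71 and -0.85 in C57BL6 (-1.78 ± 0.23, adjusted p = 0.00400), Ngp (neutrophilic granule protein) at -3.33 and -3.39 in Balb/c and -1.26 and -1.62 in C57BL6 (-1.92 ± 0.23, adjusted p = 0.00273), and Camp and S100a8 differed by -2.05 and -1.28. Camp was above background on 1 Balb/c array, and Lcn2 on neither, at least 1.18-fold lower. The summed level of the neutrophil list was 5.90 to 10.1 in Balb/c and 11.9 to 16.1 in C57BL6, and Retnlg was below background on all 4 arrays. Of 8 tested B cell markers 2 were called, both higher in Balb/c, although 5 of the 8 lay below 0 and the list median was -0.34. They were Ighm, at 4.11 and 3.77 in Balb/c and 2.62 and 2.07 in C57BL6 (1.59 ± 0.33, adjusted p = 0.0334), and Ms4a1, at -1.97 and -1.98 in Balb/c and -3.60 and -3.47 in C57BL6 (1.56 ± 0.34, adjusted p = 0.0443). With the mean of its probes Ighm was not called (adjusted p = 0.0537). The summed level of the B cell list was 15.2 to 19.5 in Balb/c and 6.95 to 9.76 in C57BL6. Ighm made up most of this sum on every array, so the sum does not describe the other markers. Ebf1 was below background on all 4 arrays. Of 8 tested T cell markers, Thy1 was called (2.12, list median 0.24). Of 3 tested natural killer cell markers, Klra8 was called higher (3.20). The other 2 were below 0, not well above background in Balb/c, and not called (list median -1.20). Whether the Klra8 probe also reads another Klra gene was not tested. Cd209a was called among 8 dendritic cell markers and Pdgfrb among 7 stromal ones. The part of other cell types in the strain differences was not tested. Leaving out Balb/c replicate 1 ended the calls of S100a8, Ighm, Ms4a1 and Klra8 (adjusted p = 0.142, 0.189, 0.186 and 0.238). Omitting Balb/c replicate 2 ended the calls of S100a8, Ighm, Ms4a1 and Thy1 (adjusted p = 0.131, 0.0667, 0.118 and 0.0848). Without C57BL6 replicate 1, the calls of Camp, Lcn2, S100a8, Ighm, Ms4a1 and Klra8 were lost (adjusted p = 0.0733, 0.0682, 0.283, 0.0791, 0.248 and 0.168). Leaving out C57BL6 replicate 2 ended the calls of S100a8, Ighm, Ms4a1, Thy1 and Klra8 (adjusted p = 0.0648, 0.235, 0.189, 0.132 and 0.256). With slide as a block, Ighm, Ms4a1, Thy1 and Klra8 did not pass the test (adjusted p = 0.146, 0.108, 0.0605 and 0.119). The random replicate block within strain ended the call of Ms4a1 (adjusted p = 0.130).

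Most strain differences seen after 4 h were also present without IL-4. The mock comparison called 952 genes (5.45%) and the 18 h comparison 929 (5.32%), on arrays that the 4 h comparison does not use but in a fit that shares the estimate of the spread. Samples with the same strain and replicate number also deviated together (consensus correlation 0.597), so the 3 comparisons are not independent. Of the 758 genes called at 4 h, 589 were called in the same direction in mock cells, which is 77.7% of the 4 h genes and 61.9% of the mock genes. With 18 h the overlap was 594, or 78.4% and 63.9%, and 506 genes were called the same way at all 3 times. Differences had the same sign in 743 of 758 genes in mock cells and in 747 at 18 h. A further 81 genes passed the threshold at 4 h and in neither other comparison, which does not show that their strain difference changed. Sucnr1, the succinate receptor, was the 1 gene called in opposite directions by its measured values, and was chosen after they were seen. It was at -7.27 and -7.40 in Balb/c and -4.48 and -5.16 in C57BL6 after 4 h (adjusted p = 9.45e-04), and at -7.18 and -7.08 against -8.35 and -8.46 after 18 h (adjusted p = 0.0228). After 4 h Balb/c was not well above background on either array, which makes it at least 1.82-fold lower there, and after 18 h neither strain was, so the 18 h direction compares readings near the background.

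**Figure D5:**
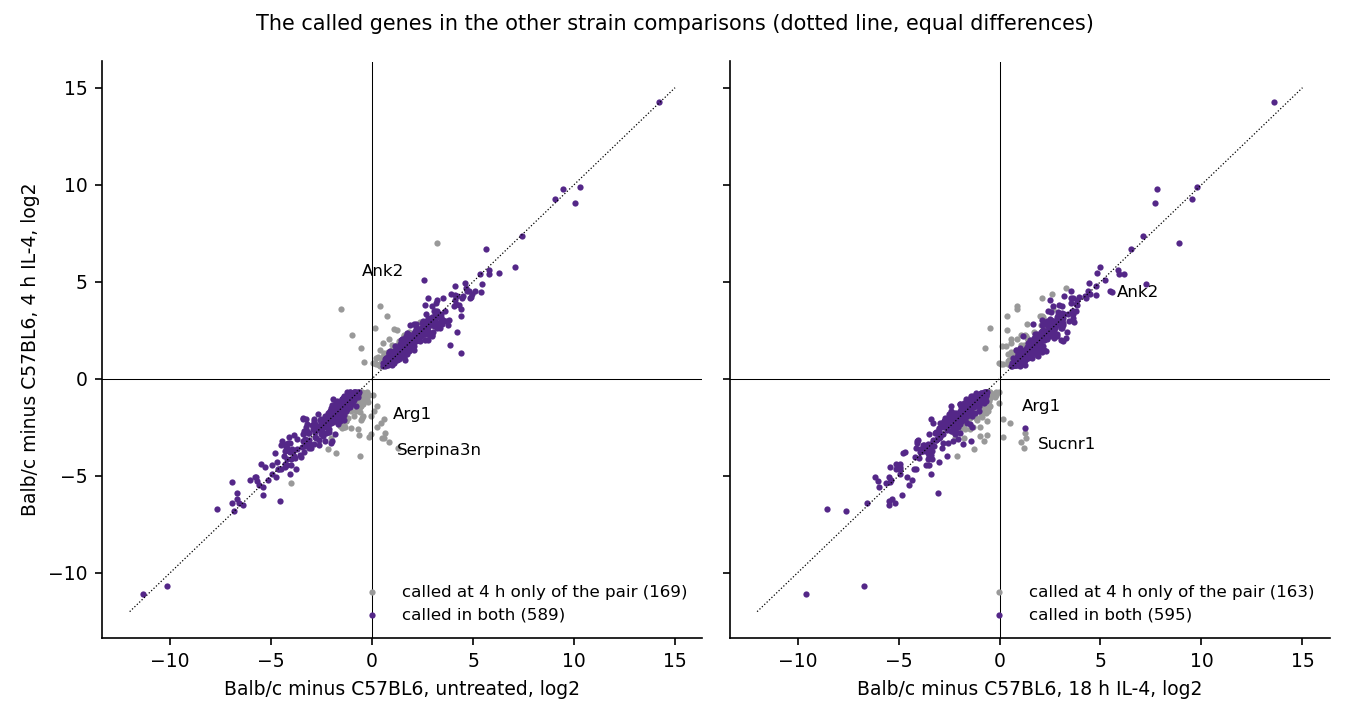
Log2 difference after 4 h IL-4 (vertical axis) of the 758 called genes against the log2 strain difference of the same genes in untreated cells (left) and after 18 h IL-4 (right). Purple genes were also called in the other comparison, and most points lie near the dotted line of equal differences. Arg1, at -2.29 after 4 h, lies near 0 on both horizontal axes.

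Whether IL-4 changed a gene differently in the strains was tested as the difference of the 4 h changes. No gene of 17460 was called by limma (0%), with 384 at an unadjusted p below 0.05. Arg1 rose at least 36.0-fold in Balb/c and at least 298-fold in C57BL6 from mock levels that were not well above background. The measured difference between these rises did not pass the correction (adjusted p = 1.000), and bounds do not compare the rises. Samples of 1 strain with the same replicate number deviated together, and with that number as a random block within strain 7 features were called, Ank2, Hebp2, Mboat2, Plekhh1, Slc7a2, Zfp786 and a probe without a gene name, and in all of these except Ank2 the change from mock was lower in Balb/c. With it as a fixed block none was called. Slc7a2, which imports arginine, rose by 3.33 in Balb/c and at least 47.3-fold in C57BL6, where mock cells were not well above background (adjusted p of the difference 0.374, 0.0101 with the random block and 0.0717 with the fixed block), and was singled out after its values were seen.

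Called genes lay side by side on chromosomes in some cases. Of 620 called genes with a place in the RefSeq annotation, 89 (14.4%) had a called gene as a next tested neighbour, against 8.15% of the genes not called. They formed 41 runs of 2 or more, and 4 runs had at least 3 genes. The longest held 6 genes, Znf41-ps, Zfp987, Rex2, Zfp982, Zfp985 and Zfp979, all lower in Balb/c, with differences of -0.68 to -1.88 in 5 of them and at least 6.22-fold in Zfp979, which was not well above background in Balb/c. Other runs were Trim6, Trim34a and Trim12a, and Pde12, Dnah12 and Appl1, each lower throughout. Pairs of relatives included Ifi44 with Ifi44l and Ly6a with Ly6c1, which differed in 1 direction, and Ifi202b with Ifi205, which differed in opposite directions. Runs were described after their values were seen.

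Separate probes of a gene did not always give the same answer. Of 256 called genes with more than 1 kept probe, 205 had every probe on the same side of 0, 51 did not, and in 39 the probes differed by more than 2 on the log2 scale. Itga9, an integrin chain, differed by 1.44 ± 0.20 (adjusted p = 0.00551) by its brightest probe and by 5.32 by another. The call did not hold without 1 array for Itga9 (adjusted p = 0.0606 without C57BL6 replicate 1).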

How the data were processed

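RNA of 12 samples was labelled with Cy3 and hybridised to 1-colour Agilent arrays, 6 groups of 2. The deposited scanner intensities came from version 9.5.1.1 of Agilent Feature Extraction, named in the submitters' processing notes. Per the file headers it subtracted background and detrended each array, with no scaling between arrays. The deposited ratio table equals the scaled intensity divided by its mean over both untreated C57BL6 arrays (r at least 0.99995 over 21164 probes, SD of the log2 difference at most 0.00434, column medians 0.936 to 1.132), and it was used in an alternative.

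Control spots were left out, as were spots flagged non-uniform or outlying, spots of a probe were averaged, and each array's 75th percentile was subtracted on the log2 scale. After 4 h IL-4, both arrays of 1 strain or the other had to be well above background for a probe to be kept (25962 of 41174 probes), and the brightest kept probe over the 12 arrays stood for its gene (17460 genes). Kept probes were named from the RefSeq table of GRCm38.p6 by accession (16965), symbol (3715) or older symbol (1745), and 3537 kept the name in the files. Group means of all 12 arrays were fitted in R 4.3.3 with limma 3.58.1 (lmFit, eBayes, 6 residual degrees of freedom), adjusted by Benjamini-Hochberg over all genes, and errors after ± are standard errors from that fit. Intervals are 95% intervals of limma's moderated test. Tables and figures used Python 3.11.15, pandas 2.3.3, numpy 2.4.6 and matplotlib 3.10.9. The fit was also run on simulated data with independent noise on each array. That check does not cover the shared deviations of samples with the same strain and replicate number. With 2 arrays a group, that number limits the precision.

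Genes were named by rule: the 12 largest called differences each way among genes above background on all 4 arrays, up to 8 each way by the bound among genes dim in 1 strain, up to 6 of each gene list with called ones first, and 8 genes whatever the outcome. The members and lists were chosen with earlier results of these data known. Where the text names fewer than the rule allows, the rest were uncalled list members or are not reported here.

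Same-numbered samples of the 2 strains did not deviate together after 4 h (r = -0.211), so the number pairs no samples across strains. Within a strain the r was 0.345 to 0.686 in Balb/c and 0.191 to 0.641 in C57BL6, and the labels describe the replicates as separate experiments, so strain and number served as a block (consensus correlation 0.597). P-values measure the spread between samples that are pools of mice. Alternatives changed the background correction, scaling, filter, probe choice, samples and blocks. The fixed block within strain and normexp without spots whose local background was an outlier were chosen after seeing the data. The general treatment text of the labels also mentions LPS, which no label of these samples names.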

Additional observations from a re-analysis of the deposited data

Results flagged for a closer look

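Strain effects that ran in opposite directions under 2 conditions were picked out among the named genes. Sucnr1 was called lower in Balb/c after 4 h and higher after 18 h (measured 1.28), but neither strain was well above background after 18 h, so that value compares readings near the background, and the change between the times was not tested. Arg1 was lower in Balb/c after 4 h (-2.29), whereas after 18 h every Balb/c value lay above every C57BL6 value (0.50), a difference that was not called, and the change between the times was not tested.

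For 3 genes, both replicates of 1 strain rose from mock to 4 h IL-4 while both of the other fell. Ank2 changed by 1.73 in Balb/c and -0.77 in C57BL6, a difference of changes that limma did not call (adjusted p = 0.930) except with a random block within strain (0.0404). Nlrp1a changed by -0.66 in Balb/c and 0.60 in C57BL6. Serpine2 changed by -0.45 in Balb/c and 0.71 in C57BL6. The difference of changes was not called for Nlrp1a or Serpine2 (adjusted p = 1.000 for each), and after 4 h none of the 3 genes was well above background on either array of 1 strain.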

How the results depend on the processing

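The 758 strain calls after 4 h ranged from 325 to 687 when 1 array was left out. They numbered 58 with normexp, 132 with only the 4 arrays and 1152 with the replicate number as a fixed block, a pairing of the strains that the samples do not bear out. The other alternatives gave 514 (no filter) to 782 (quantile). All 758 kept their direction under quantile or median scaling, with flagged spots, with any block and without any 1 array, 748 did with the mean of probes and 637 with normexp, which moved the median of all genes from -0.04 to 0.17. For the fits without 1 array the direction was fixed in advance, since the strains' values overlapped for no called gene. Without spots of outlying local background normexp called 716.

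The mock count of 952 became 51 with normexp, 595 without a filter, 252 with only the compared arrays, 1763 with the replicate block, 470 with slide as a block and 445 to 759 without 1 array. The 18 h count of 929 became 129, 611, 510, 1398 and 419, in the same order, and 341 to 488 without 1 array, and 57.4% of its normexp calls were higher in Balb/c. For the difference of the IL-4 changes, 0 calls became 7 with the random replicate block within strain and 0 to 4 without 1 array.

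Of 96 called genes named in the text, 13 kept call and direction in every alternative. Camp (0.26), Cd300c (0.55), Lcn2 (0.85), Serpina3n (0.71) and Tnfsf4 (0.0099) turned sign with normexp, and Thumpd1 (0.20) where all 4 arrays had to be above background, which leaves its other probe. Of uncalled genes, Cish turned without Balb/c replicate 2 (range without 1 array -0.66 to 0.25), Irf4 without Balb/c replicate 2 (0.49) or C57BL6 replicate 2 (0.0066; range -0.63 to 0.49) and with normexp without outlying background (0.068), and Retnla with slide as a block (-0.071) or without Balb/c replicate 1 (-0.49) or C57BL6 replicate 1 (-0.095; range -0.49 to 1.05). Apart from what is stated, the cause was not tested.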
